A study of Homo sapiens with 16 samples.

Results

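GREB1 is a gene on the short arm of human chromosome 2, at chr2:11482888-11642788 in hg38, a span of 159.9 kb. The peaks described here are those of 12 ChIP-seq libraries that lay in this span with 50 kb on each side (chr2:11432888-11692788), 84 of the 692199 peaks in all. The locus was chosen because peaks around it covered less length after TGF-beta in each antibody target, so the treatment values of GREB1 are given as a description and without a test. The libraries came from H69, human bile duct epithelial cells (cholangiocytes) that were transformed with a virus. One set of cells had received recombinant human TGF-beta at 10 ng/ml for 16 h, and the other set had received vehicle over the same time. Chromatin was immunoprecipitated for SMAD3, for H3K27ac and for H3K9ac, with 2 libraries per target and treatment, numbered 4 and 5 for SMAD3 and 1 and 2 for the acetylation marks. All values come from this single transformed line. Whether replicates came from separate cultures is not in the labels, and p-values therefore measure the spread between these libraries, which may be technical.

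GREB1 is best known from breast cancer cells as an early response gene of estrogen, and its protein binds the estrogen receptor and acts as a cofactor of it. SMAD3 is the transcription factor that carries the TGF-beta signal from its receptor to chromatin. H3K27ac marks active enhancers and promoters, and H3K9ac marks active promoters above all.

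Sequences are shown for the annotated features inside the window that peaks reached, as RefSeq gives them on GRCh38.p14, the assembly that hg38 names. The microRNA gene MIR4429 (chr2:11540605-11540677) lies within the GREB1 span, inside H3K27ac and H3K9ac peaks of the vehicle libraries and outside all SMAD3 peaks. Its mature product lies on the minus strand at chr2:11540652-11540671, and capitals mark its seed, bases 2 to 8:
hsa-miR-4429: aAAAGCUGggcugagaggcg
The promoter of E2F6, upstream of GREB1 and on the minus strand, is shown for contrast, since all 12 libraries had peaks there. It is printed from 250 bases before the E2F6 start to 50 bases after it (chr2:11466112-11466411, minus strand), and capitals mark the 165 of 300 bases that lay inside SMAD3 peaks of all 4 SMAD3 libraries:
E2F6 promoter: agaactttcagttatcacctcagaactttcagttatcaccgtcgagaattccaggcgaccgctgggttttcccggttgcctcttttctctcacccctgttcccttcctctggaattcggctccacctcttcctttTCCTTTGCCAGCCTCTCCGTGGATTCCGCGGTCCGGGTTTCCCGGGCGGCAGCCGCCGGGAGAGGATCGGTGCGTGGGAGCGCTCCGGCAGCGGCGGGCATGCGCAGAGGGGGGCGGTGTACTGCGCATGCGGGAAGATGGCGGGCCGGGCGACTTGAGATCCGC
None of the motifs searched on both strands was found in these 300 bases. They included the SMAD element CAGAC, present in 45.3% of all 34961 promoters of this length, the AP-1 motif TGANTCA (7.68%) and the E-box CANNTG (68.7%). The others were the single estrogen receptor site AGGTCA (13.8%) and the estrogen response element, GGTCA and TGACC separated by any 3 bases (0.0572%). No SMAD element in this window says only that these letters are not there.

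Each library was deposited as a list of peaks with no counts of reads, so the depth is unknown, and the value used throughout is the length covered by peaks. SMAD3 libraries held 33700 and 34413 peaks with TGF-beta and 22451 and 25268 with vehicle, so a shorter SMAD3 length at GREB1 ran against the library totals. H3K27ac libraries held 92714 and 90092 peaks with TGF-beta and 82259 and 83429 with vehicle, and H3K9ac libraries 54682 and 56825 with TGF-beta and 61297 and 55069 with vehicle. H69 carried H3K27ac at the biliary keratin KRT7 in every library, with 22.0 and 22.4 kb with TGF-beta and 22.0 and 23.3 kb with vehicle. Of 10 cholangiocyte markers, 6 were covered in all 4 H3K27ac libraries and CFTR and ONECUT1 were listed at 0, while ALB and TTR of 4 hepatocyte markers and COL3A1 and DES of 3 mesenchymal markers were listed at 0. Summed H3K27ac length over the mesenchymal list was 16.4 and 14.8 kb with TGF-beta and 11.4 and 11.7 kb with vehicle. All of it lay at PDGFRB, so this sum is the value of a single gene. Leukocyte markers summed to 5.61 and 5.61 kb with TGF-beta and 7.28 and 8.53 kb with vehicle. Cholangiocyte markers summed to 60.2 and 60.8 kb with TGF-beta and 53.2 and 57.9 kb with vehicle. Hepatocyte markers summed to 8.31 and 8.1 kb with TGF-beta and 6.79 and 7.8 kb with vehicle. Most of that lay at SERPINA1, with 8.05 and 7.84 kb with TGF-beta and 6.6 and 7.47 kb with vehicle. All 3 endothelial and 3 of 4 leukocyte markers were covered in all 4 libraries. Over the endothelial list the sum was 23.0 and 22.8 kb with TGF-beta and 20.1 and 19.9 kb with vehicle, and the part of other cells in the values at GREB1 was not tested.

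Fewer peaks lay around GREB1 after TGF-beta in all 3 targets, and together they covered less length. H3K27ac peaks numbered 7 and 7 with TGF-beta and 19 and 18 with vehicle, and covered 2.929 and 2.400 kb of the 259.9 kb window with TGF-beta and 7.533 and 7.685 kb with vehicle. H3K9ac peaks numbered 4 and 4 with TGF-beta and 9 and 6 with vehicle, and covered 2.446 and 2.769 kb with TGF-beta and 5.517 and 4.434 kb with vehicle. SMAD3 peaks numbered 2 and 2 with TGF-beta and 3 and 3 with vehicle, and covered 1.067 and 0.887 kb with TGF-beta and 1.313 and 1.628 kb with vehicle. The treatments did not overlap in any target. With 10 kb on each side of a gene, both TGF-beta libraries lay below both vehicle libraries at 36.0% of genes tested in H3K27ac, 27.4% in H3K9ac and 32.0% in SMAD3, and since the locus was chosen on this contrast nothing is read from its own lack of overlap. The mean length with TGF-beta was 35.0% of that with vehicle in H3K27ac, 52.4% in H3K9ac and 66.4% in SMAD3. As log2 of the mean lengths plus 500 bp, the change was -1.36 in H3K27ac, -0.82 in H3K9ac and -0.42 in SMAD3. TGF-beta replicate 2 of both marks was sequenced on another lane than the other libraries of the marks, and without it, within a single lane, the change was -1.24 in H3K27ac and -0.89 in H3K9ac. In these bulk cells, fewer cells that carry a mark and less of the mark per cell cannot be told apart.

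Most of the SMAD3 length that remained after TGF-beta was not at GREB1 but at the E2F6 start within the upstream flank. In the GREB1 span with 10 kb on each side, SMAD3 covered 0.205 and 0 kb with TGF-beta and 0.954 and 0.847 kb with vehicle, a mean of 11.4% of that with vehicle. H3K27ac covered 1.452 and 0.927 kb there with TGF-beta and 6.348 and 6.165 kb with vehicle (19.0%), and H3K9ac 0.943 and 1.383 kb with TGF-beta and 3.589 and 2.713 kb with vehicle (36.9%). The treatments again did not overlap, from which nothing is read, as above. The narrower window moved the log2 change to -2.00 in H3K27ac, -1.13 in H3K9ac and -1.22 in SMAD3.

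**Figure D1:**
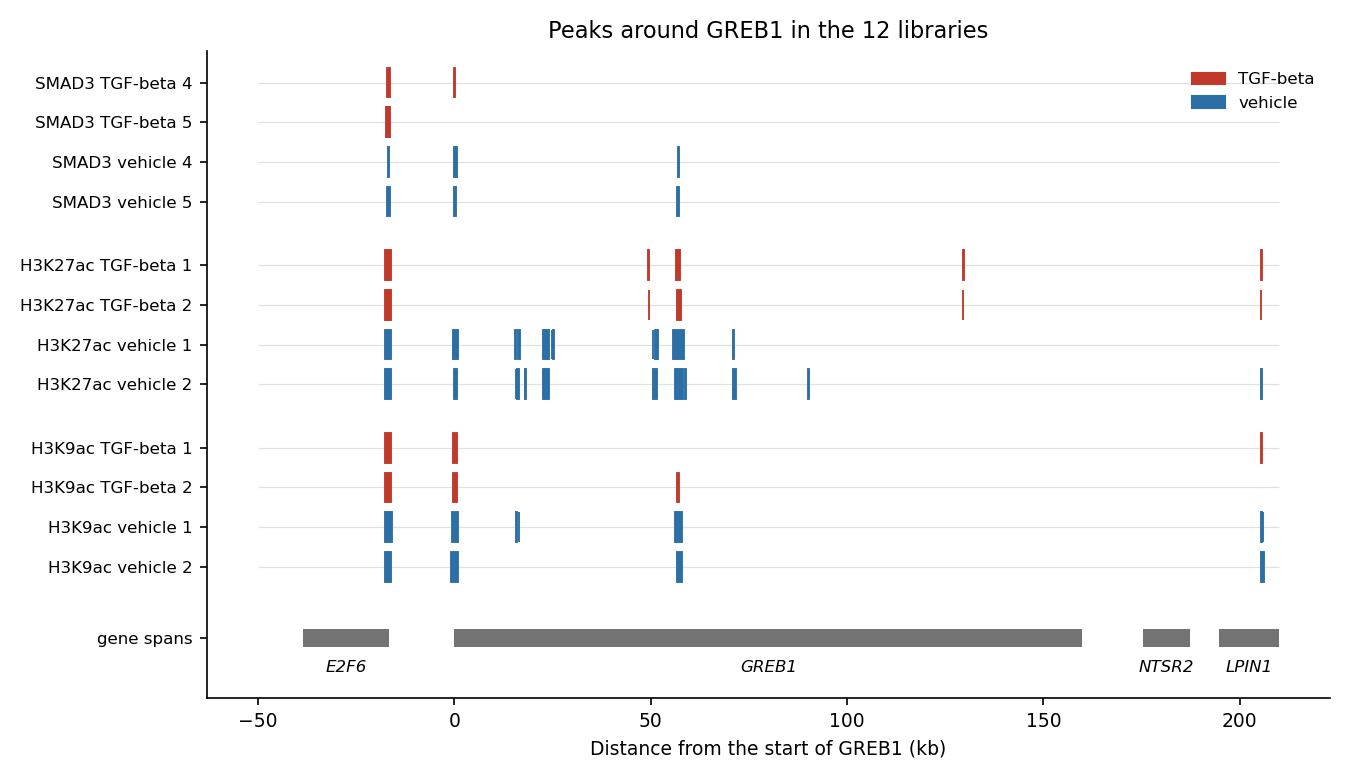
Peaks of the 12 libraries around GREB1, drawn to scale by distance in kb from the start of GREB1, with 1 row per library (TGF-beta red, vehicle blue) and the spans of 4 genes below. The E2F6 start, at -16.8 kb, has peaks in all 12 rows, while the row of peaks between 16.0 and 71.3 kb inside GREB1 is dense only in the vehicle rows of H3K27ac.

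Peaks of all libraries within 500 bp of each other were joined into 13 elements, of which 10 lay wholly inside the GREB1 span and 3 held peaks of all 3 targets. These 3 were the E2F6 start, the GREB1 start, and an element 57.4 kb inside GREB1. SMAD3 was found at no other element. The GREB1 start is taken as the lower coordinate of its span, the side from which the gene is transcribed. The annotation used gives 1 span per gene and no exons. Exon, intron or the start of another transcript inside the span is therefore not stated for any element.

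At the GREB1 start (chr2:11482136-11483805) the 3 targets differed. H3K27ac peaks there covered 0 and 0 bp with TGF-beta and 871 and 583 bp with vehicle. H3K9ac was called in all 4 libraries, over 943 and 1023 bp with TGF-beta and 1592 and 1670 bp with vehicle. SMAD3 covered 205 and 0 bp with TGF-beta and 588 and 507 bp with vehicle. This start thus kept H3K9ac peaks in both TGF-beta libraries, in a shorter stretch, while no H3K27ac peak was called there. A SMAD3 peak was still called there in TGF-beta replicate 4. The H3K9ac mean was 983 ± 56.6 bp with TGF-beta and 1631 ± 55.2 bp with vehicle (SD, n = 2 libraries each).

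The authors' score of a peak, the -log10 of a p or q value, ranks it within its own library. The single H3K9ac peak at the GREB1 start scored 49.4 and 49.5 in the TGF-beta libraries, above 65.19% and 64.84% of the peaks of those libraries, and 107.4 and 135.4 in the vehicle libraries, above 79.01% and 81.64%. The H3K27ac peaks of the vehicle libraries scored 2.9 to 14.1 there, above 1.08% to 53.35% of the peaks of their libraries. The SMAD3 peak scored 13.2 in TGF-beta replicate 4, against 19.5 and 27.3 in the vehicle libraries. Lists of different lengths make these ranks a description of each library and not a measure of change.

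The element 57.4 kb inside GREB1 (chr2:11538513-11541968) held more H3K27ac length with vehicle than any other element of the window. H3K27ac covered 919 and 639 bp of it with TGF-beta and 2342 and 2257 bp with vehicle. H3K9ac covered 0 and 360 bp with TGF-beta and 1599 and 1043 bp with vehicle. SMAD3 covered 0 and 0 bp with TGF-beta and 366 and 340 bp with vehicle. In all 3 targets the treatments did not overlap, from which nothing is read, since the locus was chosen on this contrast. The element was not emptied: H3K27ac stayed called in both TGF-beta libraries and H3K9ac in TGF-beta replicate 2. The element made up 63.3% and 68.9% of the H3K27ac length of GREB1 with 10 kb on each side in the TGF-beta libraries and 36.9% and 36.6% in the vehicle libraries.

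The vehicle SMAD3 peaks of this element (chr2:11539768-11540133 in replicate 4 and chr2:11539696-11540035 in replicate 5) lay wholly inside H3K27ac and H3K9ac peaks of every vehicle library. They ranked low in their own libraries, with scores of 9.5 and 3.5, above 23.27% and 3.45% of the peaks. The H3K27ac peak around them ranked high, with scores of 100.4 and 103.7 in the vehicle libraries, above 89.64% and 87.73% of the peaks. With TGF-beta the highest-scoring H3K27ac peak of the element scored 28.1 and 10.1. The 73 bp of MIR4429, whose mature sequence is printed above, lay wholly inside H3K27ac and H3K9ac peaks in both vehicle libraries of each mark, and 0 of the 73 bp lay inside a peak in any TGF-beta library or any SMAD3 library. This is the coverage of the gene's position, and the data hold no measure of the microRNA itself.

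**Figure D2:**
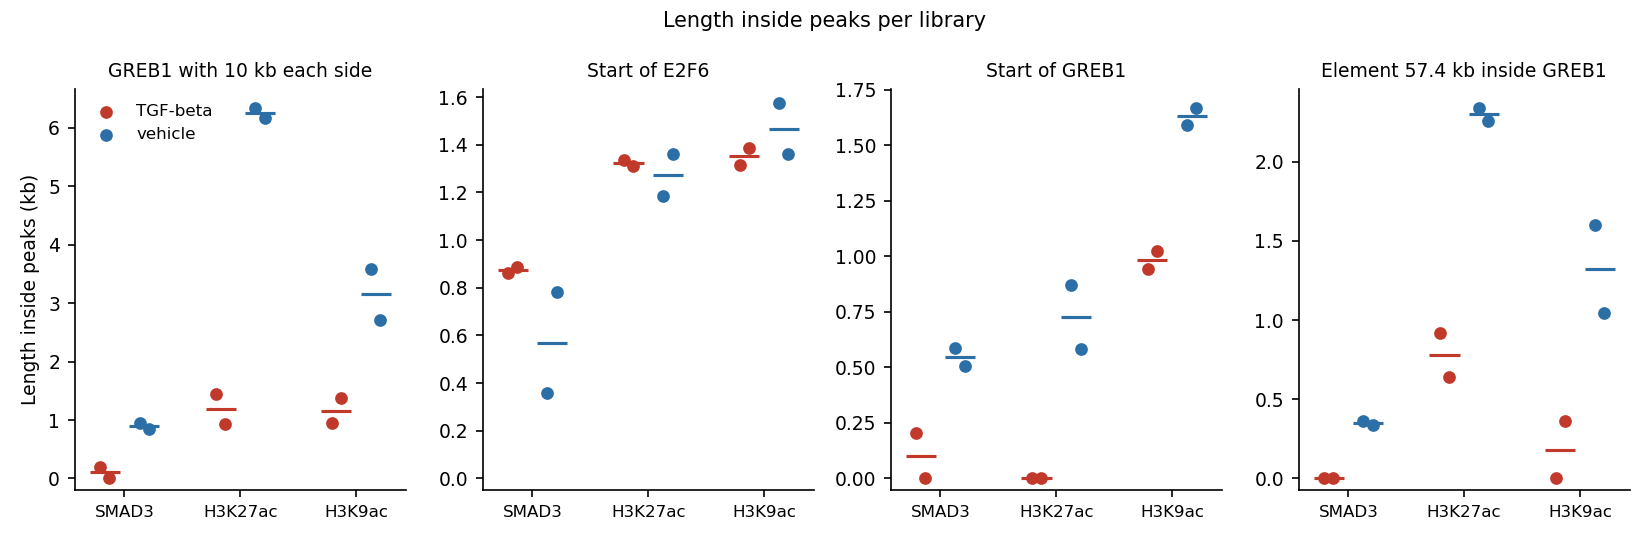
Length inside peaks in kb per library (points) with the mean of the 2 libraries (lines), TGF-beta red and vehicle blue, for GREB1 with 10 kb on each side, the E2F6 start, the GREB1 start and the element 57.4 kb inside GREB1. The treatments are apart in each target in the 1st, 3rd and 4th panels, and at the E2F6 start they overlap in both acetylation marks. Nothing is read from this, since the locus was chosen on this contrast.

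The other 9 elements inside GREB1 were marked by H3K27ac, and 1 of them also by H3K9ac. At 16.0 kb (chr2:11498346-11499492) H3K27ac covered 0 and 0 bp with TGF-beta and 682 and 704 bp with vehicle, and H3K9ac 0 and 0 bp with TGF-beta and 398 and 0 bp with vehicle. At 23.3 kb (chr2:11505508-11506910) H3K27ac covered 0 and 0 bp with TGF-beta and 1126 and 1078 bp with vehicle. At 51.2 kb (chr2:11533415-11534694) it covered 0 and 0 bp with TGF-beta and 622 and 544 bp with vehicle, and at 71.3 kb (chr2:11553755-11554597) 0 and 0 bp with TGF-beta and 359 and 551 bp with vehicle. These 4 elements were thus called in both vehicle libraries and in neither TGF-beta library. Elements at 18.1, 25.1 and 90.3 kb were each called in a single vehicle library, over 156, 346 and 292 bp.

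Peaks also appeared inside GREB1 with TGF-beta. At 49.5 kb (chr2:11532214-11532488) H3K27ac covered 272 and 141 bp with TGF-beta and 0 and 0 bp with vehicle, and at 129.6 kb (chr2:11612324-11612592) 261 and 147 bp with TGF-beta and 0 and 0 bp with vehicle. Both were short and scored 4.0 to 9.5. The first of them lay less than 1 kb from the element at 51.2 kb that was called only with vehicle.

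By merged region of a single target, H3K27ac had 24 regions in the window, of which 9 were called in both vehicle libraries and in neither TGF-beta library, 2 with TGF-beta alone (both libraries), 3 in all 4, and 10 in other patterns. Over the whole genome 4.72% of H3K27ac regions were lost in this sense, 12% gained and 41.9% called in all 4. All 9 lost regions lay inside GREB1 or at its start. H3K9ac had 9 regions, with 1 lost, none gained and 3 called in all 4, beside 6.15% lost, 5.15% gained and 49.8% called in all 4 over the genome. The lost H3K9ac region lay in LPIN1, 206.0 kb from the GREB1 start, and not in GREB1. SMAD3 had 3 regions, with the 1 at 57.0 kb lost and the 1 at the E2F6 start called in all 4, beside 0.669% lost, 13.7% gained and 41.7% called in all 4 over the genome. Since the locus was chosen on this contrast, nothing is read from these shares. With only peaks scoring at least 5 kept, or with the same number of top-scoring peaks in each library, no SMAD3 region and no H3K9ac region of the window was lost. The SMAD3 peak at 57.0 kb scored 3.5 in vehicle replicate 5, and the H3K9ac peak at 206.0 kb scored 3.2 in vehicle replicate 1, so these settings dropped them.

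The edges of the window behaved differently from its middle. The E2F6 start (chr2:11465214-11466923), at -16.8 kb from the GREB1 start, had SMAD3 over 862 and 887 bp with TGF-beta and 359 and 781 bp with vehicle. H3K27ac covered 1337 and 1312 bp there with TGF-beta and 1185 and 1361 bp with vehicle, and H3K9ac 1317 and 1386 bp with TGF-beta and 1573 and 1360 bp with vehicle. The treatments overlapped in both marks, and both TGF-beta libraries lay above both vehicle libraries in SMAD3. The SMAD3 libraries with TGF-beta also held more peaks in all. With each library centred, the SMAD3 log2 change of E2F6 with 10 kb on each side was 0.08 (limma, adjusted p = 0.734). In each of the 8 libraries of the marks, 2 peaks flanked a gap of 137 to 188 bp over the E2F6 start, and the SMAD3 peaks of the 4 SMAD3 libraries covered 132 to 188 bp of that gap. The promoter printed above holds this gap, and its capitals show where SMAD3 lay in every library.

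At the other edge, an element inside LPIN1 (chr2:11688242-11688996) had H3K27ac over 140 and 161 bp with TGF-beta and 0 and 159 bp with vehicle, and H3K9ac over 186 and 0 bp with TGF-beta and 355 and 361 bp with vehicle. NTSR2, the gene of a neurotensin receptor between GREB1 and LPIN1, was listed at 0 in all 12 libraries. The promoter windows of NTSR2 and LPIN1 were likewise outside all peaks. The nearest SMAD3 peaks outside the window lay 58.2 kb further upstream in each library and 53.6 to 53.8 kb further downstream. The nearest H3K27ac peaks lay 42.5 to 57.4 kb upstream of it and 4.0 to 4.7 kb downstream, in LPIN1, and the nearest H3K9ac peaks 42.6 to 58.2 kb upstream and 4.3 to 51.6 kb downstream.

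To place GREB1 among other genes, peak length in each protein-coding gene with 10 kb on each side was fitted with limma for each target, as log2 of the length plus 500 bp, after each library was centred on its median gene. The log2 change of GREB1 was -2.10 ± 0.140 (SE) in H3K27ac, the 4th lowest of 13994 genes tested. It was -1.54 ± 0.193 in SMAD3, the 8th lowest of 12508 genes, and -1.05 ± 0.117 in H3K9ac, the 76th lowest of 14605 genes. The median gene changed by -0.026, -0.014 and 0.001 in H3K27ac, SMAD3 and H3K9ac. Among genes tested in all 3 targets, 0.341% (42 of 12313) fell in all 3 at an adjusted p under 0.05 in limma, and GREB1 is 1 of these by its choice. Both TGF-beta libraries lay below both vehicle libraries in all 3 targets at 6.06% of the 12313 genes. The SMAD3 value rests on few peaks: without vehicle replicate 4 or without vehicle replicate 5, with peaks scoring at least 5, or with equal peak numbers, GREB1 fell under the minimum mean length of 500 bp and had no SMAD3 value.

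**Figure D3:**
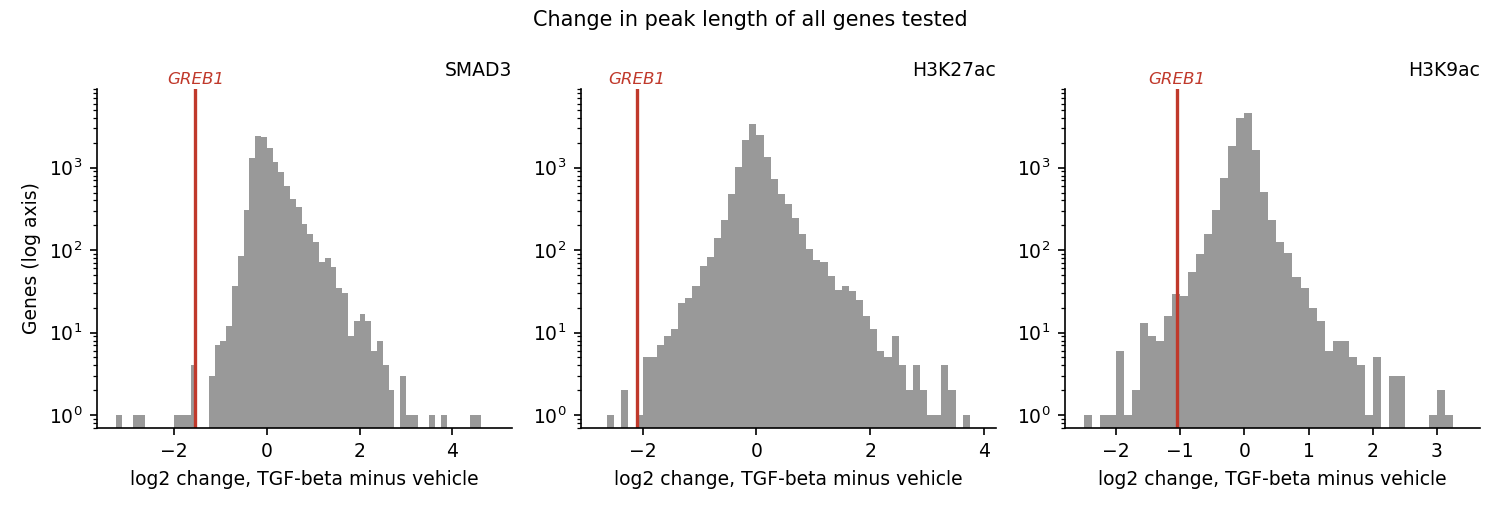
Number of genes (log axis) by log2 change in peak length, TGF-beta minus vehicle for SMAD3, H3K27ac and H3K9ac, with GREB1 as the red line. GREB1 stands at -1.54, -2.10 and -1.05, near the low end in SMAD3 and H3K27ac and within the low tail in H3K9ac.

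The genes next to GREB1 were then tested in the same fits, although the E2F6 start and a short element of LPIN1 lie in the window described above. Over all genes tested, 11.4% fell and 14.8% rose in H3K27ac, 5.28% fell and 4.19% rose in H3K9ac, and 1.41% fell and 11.2% rose in SMAD3. LPIN1, the gene of a phosphatidic acid phosphatase that starts 34.8 kb downstream of GREB1 (chr2:11677544-11827409), fell in both marks. Its H3K27ac length was 8.15 and 7.54 kb with TGF-beta and 11.5 and 12.8 kb with vehicle, a log2 change of -0.69 ± 0.0779 (limma, adjusted p = 0.00143). Its H3K9ac length was 3.72 and 3.91 kb with TGF-beta and 7.81 and 6.69 kb with vehicle, a log2 change of -0.75 ± 0.0784 (limma, adjusted p = 0.0017). The groups were apart in both marks. SMAD3 at LPIN1 covered 0.644 and 0.510 kb with TGF-beta and 0.790 and 0.499 kb with vehicle, which did not pass (log2 change -0.38, limma adjusted p = 0.221) except without vehicle replicate 5, where the log2 change was -0.67 (adjusted p = 0.0357).

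On the upstream side, E2F6, a transcriptional repressor of the E2F family, did not pass in any target, with log2 changes of 0.08 in SMAD3, -0.04 in H3K27ac and 0.00 in H3K9ac (limma, adjusted p = 0.734, 0.719 and 0.98). With 50 kb on each side its window takes in the GREB1 start and the elements at 16.0 to 25.1 kb inside GREB1. The log2 change was then -0.50 in SMAD3, -1.44 in H3K27ac and -0.32 in H3K9ac. PPIAP60, 111.1 kb upstream of GREB1, fell in H3K27ac, with 4.50 and 4.61 kb with TGF-beta and 6.23 and 6.18 kb with vehicle (log2 change -0.49, limma adjusted p = 0.0048), and did not pass in SMAD3 or H3K9ac. SLC66A3 and CIMIP5, 304.0 and 328.3 kb upstream, did not pass in any target. The windows of these genes overlap and share peaks, so they are not 2 separate results. Both had 0.957 and 0.978 kb of SMAD3 with TGF-beta and 0.726 and 1.01 kb with vehicle. In H3K27ac, CIMIP5 passed without vehicle replicate 1 (log2 change -0.38, limma adjusted p = 0.0392), and both genes passed with 50 kb on each side (log2 change -0.30 each, adjusted p = 0.0485). GREB1L, the paralogue of GREB1 on another chromosome, did not pass in any target either, with log2 changes of -0.11 in SMAD3, -0.03 in H3K27ac and -0.06 in H3K9ac (limma, adjusted p = 0.61, 0.785 and 0.732).

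**Figure D4:**
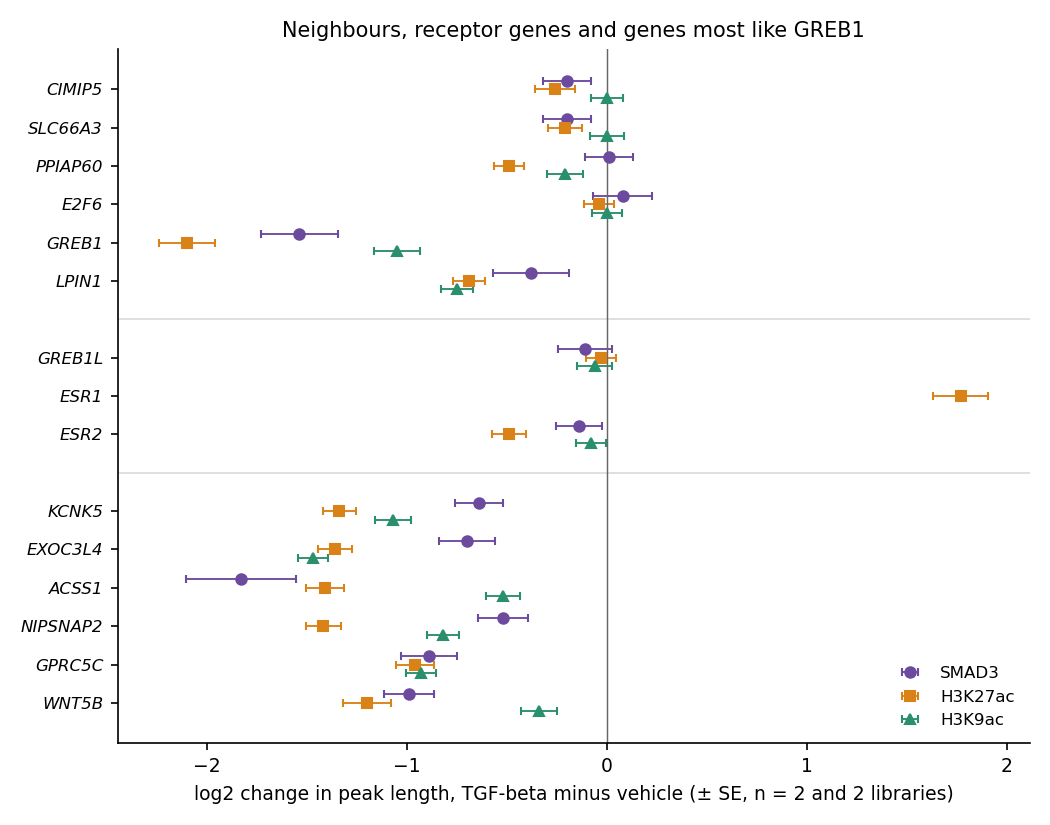
Log2 change in peak length, TGF-beta minus vehicle, with its SE from limma (2 libraries per treatment), for 5 genes within 500 kb of GREB1 and GREB1 itself in chromosome order, for GREB1L and the estrogen receptor genes, and for the 6 genes most like GREB1. E2F6 stands near 0 in all 3 targets, between -0.04 and 0.08, and LPIN1 is at -0.69 and -0.75 in the marks. ESR1 was tested in H3K27ac alone, and the values of GREB1 and of the 6 genes most like it are descriptions.

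Since GREB1 is known as a target of estrogen, genes known to respond to estrogen in breast cells were counted, from a list of 40 that was written with earlier results of these data known. In SMAD3, 8 of 27 tested genes rose and 1 fell, with a median log2 change of 0.20 against -0.01 over all genes. In H3K27ac, 7 of 31 rose and 3 fell (median 0.06 against -0.03), and in H3K9ac 3 of 33 rose and 5 fell (median 0.05 against 0.00). The shares that rose were 29.6%, 22.6% and 9.09%, and those that fell 3.7%, 9.68% and 15.2%, to be read beside the shares of all genes given above. No gene of the list was called in the same direction in all 3 targets. Only 0.341% of all genes tested in all 3 targets fell in all 3, so nothing is read from this. PDZK1, a scaffold protein of apical membranes, rose in H3K27ac, with 5.60 and 4.98 kb with TGF-beta and 1.48 and 1.25 kb with vehicle (log2 change 1.55, limma adjusted p = 0.000226), and in H3K9ac (1.81, adjusted p = 0.00144). CA12, a membrane carbonic anhydrase, rose in H3K27ac (log2 change 1.16) and in H3K9ac (0.48), the second of which was lost without TGF-beta replicate 1 and without centring. KDM4B, a histone demethylase, rose in H3K27ac (log2 change 1.35) and SMAD3 (0.89).

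Other genes of the list that rose in SMAD3 were RARA, a retinoic acid receptor (log2 change 1.65), MLPH, a melanosome transport protein (1.36), and CELSR2, a cadherin (1.07). RARA rose in H3K9ac by 0.30, a call lost in 10 of the alternatives. Genes that fell were ADCY9, an adenylate cyclase (log2 change -0.41 in H3K27ac and -0.54 in H3K9ac), RAB31, a small GTPase (-0.41 in H3K27ac), LRIG1, a membrane regulator of growth factor receptors (-0.75 in H3K9ac), AREG, a ligand of the EGF receptor (-0.72 in H3K9ac), and TPD52L1 (-0.65 in SMAD3). Since GREB1 was chosen for its fall, nothing is read from these falls being smaller in size than its own in the same target. Among them only the call of LRIG1 held whichever library was left out: without TGF-beta replicate 1 or 2, ADCY9 was at an adjusted p of 0.0563 to 0.0565 in H3K27ac, and RAB31 was at 0.0723 in H3K27ac without TGF-beta replicate 2. AREG and ADCY9 were lost in H3K9ac without TGF-beta replicate 1, and TPD52L1 was lost without TGF-beta replicate 5 or vehicle replicate 4. The AREG call was also lost with a pseudocount of 100 bp, without the length filter and without centring. That of TPD52L1 was also lost with a pseudocount of 2000 bp and without centring.

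The estrogen receptors and their partners were a second list of 18 genes. ESR1, the gene of estrogen receptor alpha, had 1.54 and 1.71 kb of H3K27ac with TGF-beta and 0 and 0.190 kb with vehicle and rose (log2 change 1.77 ± 0.138, limma adjusted p = 0.000356). It was listed too low to be tested in SMAD3 and H3K9ac. ESR2, the gene of estrogen receptor beta, had 2.0 and 2.2 kb of H3K27ac with TGF-beta and 2.97 and 2.9 kb with vehicle (log2 change -0.49, limma adjusted p = 0.00796), and GATA3, a transcription factor that works with estrogen receptor alpha in breast cells, 4.37 and 4.20 kb with TGF-beta and 5.34 and 5.58 kb with vehicle (-0.40, adjusted p = 0.00818). Both calls were lost when 1 TGF-beta library was left out, replicate 1 for ESR2 and replicate 2 for GATA3. In H3K27ac 1 of 18 tested genes thus rose (5.56%, against 14.8% of all genes) and 2 fell (11.1%, against 11.4%). The median log2 change was -0.08 against -0.03 over all genes. In SMAD3, 2 of 16 rose (12.5%, against 11.2% of all genes), among them SMAD3 itself (log2 change 1.08). There 0 fell, also at an unadjusted p under 0.05, beside 1.41% of all genes called as falling. The SMAD3 median was -0.06 against -0.01. In H3K9ac limma called 0 of 17, beside 4.19% of all genes that rose and 5.28% that fell. The median was 0.03 against 0.00. In this mark 4 genes had a negative change at an unadjusted p under 0.05 and 0 a positive one. Shares of all genes at an unadjusted p are not given here, so nothing is read from those counts.

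The 6 genes most like GREB1 were those with the smallest Euclidean distance to it over the 12 centred log2 values, after the mean of each target was taken off, among 12310 genes outside the window. Their distances were 1.31 to 1.48, against a median of 2.88 over all genes. They were KCNK5, a potassium channel, EXOC3L4, a relative of exocyst subunits, ACSS1, the mitochondrial acetyl-CoA synthetase, NIPSNAP2, a mitochondrial protein, GPRC5C, an orphan receptor, and WNT5B, a secreted Wnt ligand. KCNK5 had log2 changes of -0.64 in SMAD3, -1.34 in H3K27ac and -1.07 in H3K9ac. Its H3K27ac length was 4.33 and 4.67 kb with TGF-beta and 11.5 and 11.4 kb with vehicle. ACSS1 was the only one of the 6 with a SMAD3 change past that of GREB1 (-1.83), with 0 and 0.508 kb with TGF-beta and 1.55 and 1.53 kb with vehicle, and it changed by -1.41 in H3K27ac and -0.52 in H3K9ac. EXOC3L4 and KCNK5 went past GREB1 in H3K9ac (-1.47 and -1.07, against -1.05), and all 6 changed less than GREB1 in H3K27ac, between -1.42 and -0.96. GREB1 was chosen for its fall and was the 4th lowest of 13994 genes in H3K27ac, so nothing is read from these comparisons. The 6 genes were picked for their likeness, so their values carry no test.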

How the data were processed

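ChIP-seq of H69 cells was read from the authors' 12 peak files, 1 per library, and the 4 input samples were not used here. Per the labels' protocols, cells were fixed with 1% formaldehyde over 10 min, and fragments were read for 51 bases from each end. BWA, Picard, MACS2, bedtools and hg38 are named per the submitters' processing notes, without versions or settings. The authors deposited a score per peak, on the -log10 scale of either p or q values (no source says which), with a minimum of 2.00 to 2.04. Per the file headers, TGF-beta replicate 2 of both marks came from lane 8 and the other libraries of the marks from lane 7, and all SMAD3 libraries from lane 8. The files hold no counts, so depth and counting error are unknown.

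Peaks on other sequences than chromosomes 1 to 22 and X (7 to 66 per library) were left out. Length inside peaks was computed per library for the GREB1 window, for elements (peaks within 500 bp joined) and for 19974 RefSeq protein-coding genes of GRCh38.p14 with 10 kb on each side. Genes whose mean reached 500 bp were fitted as log2(length + 500 bp) with limma 3.58.1 in R 4.3.3, TGF-beta minus vehicle, per target, with Benjamini-Hochberg adjustment over all genes at 0.05. Centring took off a library shift whose mean difference between treatments was 0.31 in SMAD3, 0.09 in H3K27ac and -0.09 in H3K9ac (log2), so changes are relative to it. Other steps used Python 3.11.15, numpy 2.4.6, pandas 2.3.3 and matplotlib 3.10.9, and the computations were tested on simulated data. The GREB1 locus, the gene lists and the rules were chosen with earlier results of these data known. Named genes were GREB1, genes within 500 kb, GREB1L, the 6 genes most like GREB1, and per list and target up to 4 called genes with the lowest and 4 with the highest change; some of these are not reported here. A motif search in the GREB1 promoter had been planned and was not done, as its sequence was not used here. Alternatives were other windows, pseudocounts, filters, centring, peak numbers, scores, limma options, a replicate block and each library left out.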

Additional observations from a re-analysis of the deposited data

How the results depend on the processing

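The direction at GREB1 was negative in each target under every alternative that gave a value. Its fitted log2 change with 10 kb on each side ranged from -2.91 to -0.63 in SMAD3 (10 of 14 alternatives gave a value), from -2.43 to -1.44 in H3K27ac (14 of 14) and from -1.27 to -0.64 in H3K9ac (15 of 15). For the whole window, the log2 change was -0.42 in SMAD3, -1.36 in H3K27ac and -0.82 in H3K9ac. It was -1.18, -1.96 and -1.10 in the GREB1 span alone, and -1.22, -2.00 and -1.13 with 10 kb on each side, which leaves out the E2F6 start. It was -0.22, -1.04 and -0.60 with a pseudocount of 2000 bp, -1.48 in H3K27ac with 100 bp, and -0.79 in SMAD3 and -1.48 in H3K27ac with each library centred. With 1 library left out it ranged from -0.53 to -0.30, from -1.48 to -1.24 and from -0.95 to -0.67. Lost regions numbered 1 in SMAD3, 9 in H3K27ac and 1 in H3K9ac. They numbered 2 in SMAD3 where peaks had to cover at least 0.5 of a region, 5 in H3K27ac and 0 in H3K9ac with peaks within 500 bp merged, and 0 in SMAD3 and 0 in H3K9ac with equal peak numbers or a score of at least 5. With 1 library left out they ranged from 1 to 2, from 9 to 15 and from 1 to 4.

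Genes called numbered 1579 in SMAD3, 3670 in H3K27ac and 1383 in H3K9ac. With 50 kb windows they numbered 2982, 5990 and 2283. Equal peak numbers gave 715 in SMAD3, and no centring gave 557 in H3K9ac. Without centring, 99.4% of called SMAD3 genes, 74.0% of H3K27ac genes and 32.3% of H3K9ac genes rose, against 88.9%, 56.5% and 44.3% with it. With 1 library left out the counts ranged from 792 to 1744, from 1980 to 3142 and from 730 to 1402. E2F6 turned to -0.50 in SMAD3 (limma, adjusted p = 0.0178) and -0.32 in H3K9ac (adjusted p = 0.0232) with 50 kb windows. These take in the GREB1 start and the elements at 16.0 to 25.1 kb inside GREB1. The SMAD3 call at the SMAD3 gene was lost with equal peak numbers and with a score of at least 5. With the replicate number as a block, 1409, 3685 and 1525 genes were called. Same-numbered libraries did not deviate together (r = -0.0689, -0.0163 and -0.1365 in SMAD3, H3K27ac and H3K9ac), so the numbers are not taken as pairs. The crossed pairing in H3K9ac, added after seeing the data, called 1433. The cause of each other difference was not tested. The files list no region below the caller's threshold and no read counts, so how far below it a missing region lay is not known.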
